A study of Mus musculus with 29 samples.

Results

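Carboxylesterases, glucuronosyltransferases and flavin monooxygenases were followed in whole mouse liver after ligation of the common bile duct. The members are the genes of the Mouse Gene 2.0 ST annotation whose symbol is Ces, Ugt or Fmo followed by a number and which have a row of their own on the array. There were 36 of them among 22180 genes: 19 carboxylesterases, 11 glucuronosyltransferases and 6 flavin monooxygenases. Genes with a Ugt symbol are counted as glucuronosyltransferases here, including Ugt3a1, Ugt3a2 and Ugt8a, whose branches are linked to other sugars. All animals were male C57BL/6N mice, 8 to 10 weeks old, kept on standard diet before and after surgery, and no genetic change or drug is named for any group. Bile duct ligation (BDL), which blocks the flow of bile out of the liver, was studied at days 1, 3, 7 and 21 with 5 arrays each. Sham operated mice served as controls with 3, 2 and 4 arrays at days 1, 3 and 7. No sham livers of day 21 were analysed here, so the BDL livers of that day were set against the day 7 sham livers, where ligation and the time since surgery cannot be told apart. The comparisons at days 7 and 21 share their sham arrays. The titles carry different animal numbers, so the replicates are taken as separate mice.

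These 3 families take part in the handling of drugs, lipids, steroids and pigments by the liver. Carboxylesterases cut ester bonds in the endoplasmic reticulum, which activates or inactivates many drugs, and several of them also act on stored triacylglycerol. UDP-glucuronosyltransferases attach glucuronic acid from UDP-glucuronate to bilirubin, bile acids, steroids and drugs, which makes them soluble enough to leave through bile or urine. Flavin monooxygenases add oxygen to nitrogen and sulphur atoms of small molecules, without using a cytochrome P450. Many genes of these families lie in clusters of close copies that arose by duplication, so that an array row may read more than the gene it is named for.

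How close such copies can be is shown by genes of the Ugt2b cluster on chromosome 5. The lines below give the 100 bases just before the start of transcription, 5′ to 3′ on the minus strand, from RefSeq promoter sequences of build GRCm38.p6. Capitals in Ugt2b5, Ugt2b37 and Ugt2b38 mark the longest run that all 3 share, and in Ugt2b1 the 2 longest runs it shares with Ugt2b5, which are of equal length. The windows are chr5:87140341-87140440 for Ugt2b5, chr5:87254789-87254888 for Ugt2b37, chr5:87424204-87424303 for Ugt2b38 and chr5:86926504-86926603 for Ugt2b1.
Ugt2b5: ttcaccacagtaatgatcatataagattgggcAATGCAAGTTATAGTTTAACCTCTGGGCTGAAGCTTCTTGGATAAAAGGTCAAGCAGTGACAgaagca
Ugt2b37: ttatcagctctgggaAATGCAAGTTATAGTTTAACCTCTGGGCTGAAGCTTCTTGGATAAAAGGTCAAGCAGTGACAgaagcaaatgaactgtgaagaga
Ugt2b38: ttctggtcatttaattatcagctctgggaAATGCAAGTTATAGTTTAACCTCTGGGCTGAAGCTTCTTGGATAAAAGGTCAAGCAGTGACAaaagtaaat
Ugt2b1: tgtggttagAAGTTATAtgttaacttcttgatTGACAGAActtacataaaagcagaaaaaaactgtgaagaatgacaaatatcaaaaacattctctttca
The shared run is 62 bases long in the first 3 genes, against 8 bases for each run of Ugt2b1 and Ugt2b5. Over the 250 bases before the start, Ugt2b37 and Ugt2b38 were identical at 84.8% of alignment positions, with gaps counted as positions. Ugt2b38 and Ugt2b5 reached 81.5%, and Ugt2b37 and Ugt2b5 72.6%. Ugt2b1 and Ugt2b5 reached 47.7%, close to the median of 49.3% over the 21 pairs of Ugt2b genes that were aligned. Ces1b and Ces1c were the closest of the 15 Ces1 pairs that were aligned, at 76.2%, with the first of 2 listed starts of Ces1b. Ces1d and Ces1f had no promoter sequence and were not in these pairs. Promoter sequences were given for 29 of the 36 members. Probe and transcript sequences were not used here, so the share of probes that close copies have in common was not tested, and the values of Ces1, Ces2, Ces3 and Ugt2b genes are uncertain to that extent.

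Of the 36 members, 27 were tested, as 3 or more of their arrays were above a log2 value of 5. They were 13 carboxylesterases, 10 glucuronosyltransferases and 4 flavin monooxygenases. The other 9 members did not meet this filter and are not told apart from background: Ces1a, Ces1h, Ces2b, Ces2f, Ces2h, Ces5a, Ugt2b37, Fmo6 and Fmo9. Ugt2b38 passed through 3 sham arrays alone, 1 at each of days 1, 3 and 7, and all of its group means lay under 5, so the size of its differences has no meaning. Ugt1a1, which conjugates bilirubin, appeared only in rows that carry several symbols, as did the other Ugt1a genes measured and Ugt2a1 and Ugt2a2. These 3 rows with 10 symbols were not assigned to a gene. Ces2c and Ugt1a8 were not analysed here.

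Pairs of arrays correlated at 0.946 to 0.993 over all genes. At day 1, 4 arrays had a narrower spread of log2 values than the rest, with an SD of 2.03 to 2.04 over all rows, against 2.09 to 2.18 in the other arrays. Replicates 2 and 3 of the BDL group and 1 and 3 of the sham group made up this set. The hepatocyte identity of the tissue was checked with 14 measured markers, whose mean level lay between 12.15 and 12.38 in BDL day 1 arrays and 12.24 and 12.47 in sham day 1 arrays, and between 12.34 and 12.47 in BDL day 3 arrays and 12.40 and 12.56 in sham day 3 arrays. At day 7 it was 12.33 to 12.43 in BDL arrays and 12.44 to 12.50 in sham arrays, and at day 21 it was 12.31 to 12.52 in BDL arrays. Of these markers, 2, 3, 3 and 3 were lower after BDL at days 1, 3, 7 and 21, and 1 was higher at day 3. Of 11 cholangiocyte markers tested, 3, 9, 11 and 11 were higher at these times, with a mean level of 6.29 to 6.62 in BDL day 7 arrays and 6.65 to 7.03 in BDL day 21 arrays, against 5.13 to 5.37 in sham day 7 arrays. Of 12 markers of Kupffer cells and macrophages, 4, 5, 12 and 12 were higher and 1 was lower, at day 1, with a mean level of 8.69 to 9.16 in BDL day 7 arrays and 8.91 to 9.44 in BDL day 21 arrays, against 7.08 to 7.44 in sham day 7 arrays. Of 9 neutrophil markers tested, 5, 3, 4 and 5 were higher, and of 14 stellate cell and myofibroblast markers 1, 5, 11 and 13 were higher and 1 was lower, at day 1. Of 12 markers of sinusoidal endothelium, 6, 2, 0 and 3 were lower and 0, 1, 1 and 2 higher, with a mean level at day 1 of 7.00 to 7.53 in BDL arrays and 7.47 to 8.30 in sham arrays. Of 6 lymphocyte markers tested, 0, 0, 2 and 2 were lower and none was higher. The mean of 3 adipocyte markers was 6.67 to 7.15 in sham day 3 arrays and 5.82 to 7.18 in BDL day 3 arrays. It was 5.71 to 6.06 in sham day 7 arrays. That of 5 small intestine markers was 6.34 to 7.95 in BDL day 21 arrays, against 6.48 to 6.61 in sham day 7 arrays. The part of these shifts in the results that follow was not tested, and in bulk tissue fewer cells of a type and less RNA per cell cannot be told apart.

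After BDL most members that changed went down, while the changes upward were mainly among flavin monooxygenases. At day 1, 10 of 27 tested members were lower and 1 was higher than in sham livers (limma, adjusted p under 0.05), against 4.80% lower and 8.52% higher among all 14699 genes tested. At day 3, 14 were lower and 2 higher, with 3.69% and 6.47% over all genes. At day 7, 12 were lower and 2 higher, with 4.97% and 14.2% over all genes, and at day 21 the counts were 13 and 3, with 7.90% and 17.3%. Without Ugt2b38, which was tested only through its sham arrays, the lower counts were 10, 13, 11 and 12 of 26. The median log2 fold change of the tested members was -0.49 at day 1, -0.86 at day 3, -0.52 at day 7 and -0.55 at day 21, beside medians of 0.02, 0.02, 0.03 and 0.02 over all genes. Without Ugt2b38 the members' medians were -0.46, -0.84, -0.45 and -0.53. Members below the filter do not enter these counts.

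The calls were spread over the families as follows. Of 13 carboxylesterases, 6, 8, 8 and 8 were lower at days 1, 3, 7 and 21, and 1 was higher, at day 21. Of 10 glucuronosyltransferases, 4, 6, 4 and 5 were lower and none was higher at any of these days, and without Ugt2b38 the lower counts were 4, 5, 3 and 4 of 9. Of 4 flavin monooxygenases, 1, 2, 2 and 2 were higher and none was lower. In each same-day comparison at days 1, 3 and 7, 9 members were lower: Ces1b, Ces1d, Ces1e, Ces1f, Ces3a, Ces3b, Ugt2a3, Ugt2b1 and Ugt3a1. Fmo5 alone was higher in all of those comparisons. Another 8 members passed the threshold in none of the 4 comparisons: Ces2d-ps, Ces2e, Ces2g, Fmo1, Ugt2b34, Ugt2b35, Ugt2b36 and Ugt8a. The heat map of fold changes shows the members side by side. The day 3 comparison rests on 2 sham arrays, and leaving out either of them took its count of lower members to 9. Without sham day 7 replicate 4 the lower count at day 7 was 6. Without the 4 day 1 arrays of low spread, which leaves 1 sham array, 6 of the 10 lower calls of day 1 and the higher call were lost, and Ces3b, Ugt2a3, Ugt3a1 and Ugt3a2 stayed called. Ugt2b38 was called there as well, against a sham array that lies above the filter level.

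**Figure D1:**
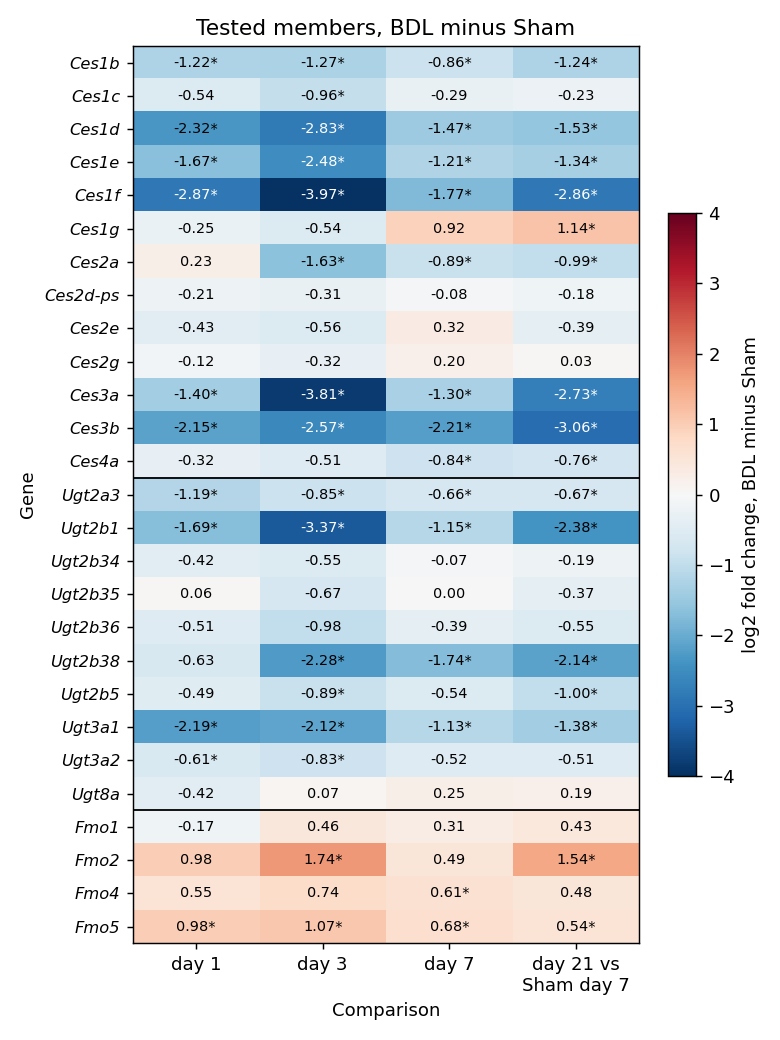
log2 fold change (BDL minus Sham) of the 27 tested members at days 1, 3 and 7 and of day 21 against Sham day 7, with carboxylesterases at the top, glucuronosyltransferases in the middle and flavin monooxygenases at the bottom. Blue is lower and red higher after BDL, and an asterisk marks an adjusted p under 0.05. Ces1f at day 3 has the deepest value, -3.97, and all group means of Ugt2b38 lie under the filter level.

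Ces1f, a liver enzyme linked to triacylglycerol handling in mice, had the deepest falls among carboxylesterases at days 1 and 3, and Ces3b had them at days 7 and 21. Ces1f had log2 values of 9.40, 8.01, 5.75, 7.48 and 9.09 in BDL livers at day 1, against 10.85, 10.85 and 10.75 in sham livers. At day 3 Ces1f had 7.75, 9.67, 5.84, 6.20 and 5.36 in BDL livers, against 10.79 and 11.07 in sham livers. The BDL livers varied widely at these times, yet none reached a sham liver. At day 7 Ces1f stood at 10.06, 9.60, 9.38, 9.38 and 8.86 in BDL livers and at 11.17, 11.21, 11.14 and 11.37 in sham livers. At day 21 Ces1f stood at 7.45, 8.04, 8.12, 9.08 and 9.12 in BDL livers. All BDL values at both times lay below those of the day 7 sham livers, and the BDL livers of day 7 were closer together than those of days 1 and 3. The log2 fold change (± SE) was -2.87 ± 0.68 (adjusted p = 0.00452) at day 1, -3.97 ± 0.78 (adjusted p = 0.00108) at day 3, -1.77 ± 0.62 (adjusted p = 0.0455) at day 7 and -2.86 ± 0.62 (adjusted p = 0.000899) at day 21. In linear terms the BDL livers were 7.33-, 15.6-, 3.4- and 7.25-fold lower. The Ces1f call of day 1 was lost without the 4 arrays of low spread (-2.20, adjusted p = 0.26). The Ces1f call of day 7 was lost with no filter (-1.77, adjusted p = 0.058), with a trended, robust fit (-1.77, adjusted p = 0.074) or without any 1 of the BDL day 7 arrays numbered 2, 3, 4 and 5 and the Sham day 7 arrays numbered 1, 2, 3 and 4 (-1.80 to -1.62, adjusted p = 0.0592 to 0.106).

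Ces1d, the triacylglycerol hydrolase that mobilises stored fat for lipoprotein assembly in mouse hepatocytes, was lower at the same times. It had 7.35, 8.05, 5.59, 5.99 and 7.38 in BDL livers at day 1, against 9.61, 9.14 and 8.82 in sham livers. At day 3 Ces1d had 7.21, 8.60, 5.31, 6.34 and 5.33 in BDL livers, against 9.67 and 9.11 in sham livers. The same BDL day 3 livers, replicates 3, 4 and 5, were the lowest for both Ces1d and Ces1f. At day 7 Ces1d was 7.76, 7.87, 7.90, 7.47 and 7.25 in BDL livers, against 8.90, 9.34, 8.87 and 9.35 in sham livers, and at day 21 it was 7.61, 7.64, 7.29, 7.69 and 7.69 in BDL livers. No BDL liver overlapped its sham group. Ces1d had log2 fold changes of -2.32 ± 0.51 (adjusted p = 0.00228) at day 1, -2.83 ± 0.58 (adjusted p = 0.00161) at day 3, -1.47 ± 0.46 (adjusted p = 0.0248) at day 7 and -1.53 ± 0.46 (adjusted p = 0.0147) at day 21. The Ces1d call of day 1 was lost without the 4 arrays of low spread (-2.24, adjusted p = 0.103). The Ces1d call of day 3 was lost with only the arrays of both groups fitted (-2.83, adjusted p = 0.0631). The Ces1d call of day 7 was lost without any 1 of BDL day 7 array 5 and the Sham day 7 arrays numbered 2 and 4 (-1.39 to -1.37, adjusted p = 0.0614 to 0.0675).

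Ces1e, known as egasyn, holds part of the beta-glucuronidase of mouse liver in the endoplasmic reticulum. Its means (± SD) were 7.08 ± 0.45 in BDL and 8.75 ± 0.25 in sham livers at day 1, 6.73 ± 0.94 and 9.21 ± 0.08 at day 3, 8.21 ± 0.29 and 9.42 ± 0.25 at day 7, and 8.08 ± 0.21 in BDL livers at day 21. It fell at all 4 times, with log2 fold changes of -1.67 ± 0.32, -2.48 ± 0.37, -1.21 ± 0.30 and -1.34 ± 0.30. Its day 1 call was lost without the 4 arrays of low spread (-1.25, adjusted p = 0.218). Ces1b fell at all 4 times as well, with -1.22 ± 0.28, -1.27 ± 0.32, -0.86 ± 0.25 and -1.24 ± 0.25. The Ces1b call of day 1 was lost without the 4 arrays of low spread (-1.27, adjusted p = 0.0962) or within those 4 arrays (-1.17, adjusted p = 0.0626). That of day 3 was lost with only the arrays of both groups fitted (-1.27, adjusted p = 0.0968) or without Sham day 3 replicate 1 (-0.97, adjusted p = 0.186). That of day 7 was lost without Sham day 7 replicate 4 (-0.77, adjusted p = 0.0591).

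Ces1c, the esterase that mice secrete into blood plasma, fell at day 3, with a log2 fold change of -0.96 ± 0.27 (adjusted p = 0.0187). Its means at day 3 were 11.94 ± 0.67 in BDL livers and 12.90 ± 0.07 in sham livers. That call was lost with only the arrays of both groups fitted (-0.96, adjusted p = 0.172), without Sham day 3 replicate 1 (-1.01, adjusted p = 0.0974) or without Sham day 3 replicate 2 (-0.92, adjusted p = 0.15). Its values at days 1, 7 and 21 were -0.54, -0.29 and -0.23, below the threshold. Ces1c passed at day 1 with all 9 sham arrays as the control (-0.72, adjusted p = 0.0032) or with the array set as a term (-0.67, adjusted p = 0.044). With only the arrays of both groups fitted Ces1c passed at day 7 (-0.29, adjusted p = 0.0236) and at day 21 (-0.23, adjusted p = 0.0485). Ces1g, whose loss in mice brings fat into the liver, was the carboxylesterase that rose. It had 10.92, 11.24, 11.02, 11.61 and 11.50 in BDL livers at day 21, against 9.23, 10.22, 10.49 and 10.54 in sham livers of day 7. Every BDL value lay above the highest sham value, and the lowest sham liver, replicate 1, stood apart from the other sham livers. The log2 fold change was 1.14 ± 0.39 (adjusted p = 0.0302), or 2.2-fold higher. The call was lost without any 1 of the BDL day 21 arrays numbered 4 and 5 and the Sham day 7 arrays numbered 1 and 2 (0.84 to 1.17, adjusted p = 0.0517 to 0.145). At day 7 Ces1g stood at 11.09, 10.86, 11.25, 10.95 and 11.07 in BDL livers, a difference of 0.92 ± 0.39 (adjusted p = 0.0996). That difference passed with only the arrays of both groups fitted (0.92, adjusted p = 0.0116). At day 1 Ces1g had 10.01, 10.51, 8.96, 9.92 and 10.88 in BDL livers, against 10.64, 10.49 and 9.80 in sham livers. At day 3 Ces1g had 9.58, 11.10, 9.93, 10.32 and 8.09 in BDL livers, against 10.48 and 10.20 in sham livers. The groups overlapped at both of these times, with differences of -0.25 and -0.54. Ces1g and Ces1f are neighbours on chromosome 8, and at day 21 Ces1f fell and Ces1g rose, as the plot along the chromosome shows.

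**Figure D2:**
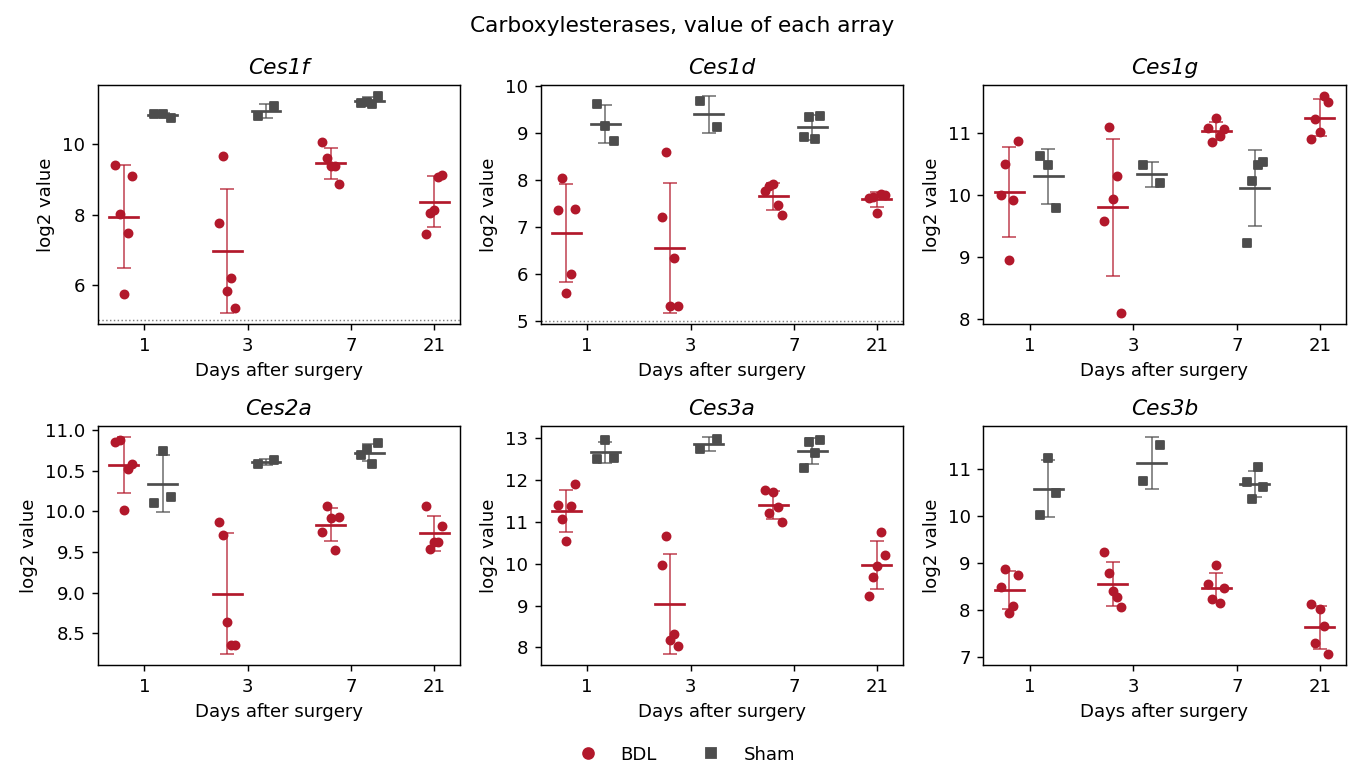
log2 value of each array for 6 carboxylesterases by day after surgery, with BDL (red circles) left of Sham (grey squares). Horizontal bars are group means, whiskers are SD, and the dotted line, in panels that reach down to it, marks the filter level of 5. In Ces1f, Ces1d, Ces3a and Ces3b all BDL points lie below the Sham points of their comparison, and in Ces1g the BDL points of day 21 lie above those of Sham day 7.

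The paired neighbours Ces3a and Ces3b, liver carboxylesterases of another subfamily, both fell at every time. Ces3a had 11.41, 11.06, 10.53, 11.37 and 11.89 in BDL livers at day 1, against 12.49, 12.95 and 12.52 in sham livers. At day 3 Ces3a had 9.98, 10.65, 8.17, 8.33 and 8.04 in BDL livers, against 12.72 and 12.97 in sham livers. Replicates 3, 4 and 5 of the BDL day 3 group were again the lowest. At day 7 Ces3a had 11.75, 11.20, 11.71, 11.34 and 10.98 in BDL livers, against 12.27, 12.89, 12.65 and 12.95 in sham livers, and at day 21 it had 9.22, 9.69, 9.95, 10.74 and 10.20 in BDL livers. The groups did not overlap at any time. Ces3a had log2 fold changes of -1.40 ± 0.42 (adjusted p = 0.0239) at day 1, -3.81 ± 0.48 (adjusted p = 4.7e-06) at day 3, -1.30 ± 0.39 (adjusted p = 0.0166) at day 7 and -2.73 ± 0.39 (adjusted p = 3.38e-06) at day 21, which is 14.1-fold lower at day 3. The Ces3a call of day 1 was lost without the 4 arrays of low spread (-1.39, adjusted p = 0.309), within those 4 arrays (-1.71, adjusted p = 0.0604) or without any 1 of BDL day 1 array 3 and the Sham day 1 arrays numbered 1, 2 and 3 (-1.48 to -1.22, adjusted p = 0.0576 to 0.072). The Ces3a call of day 7 was lost without Sham day 7 replicate 4 (-1.21, adjusted p = 0.0532).

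Ces3b had 8.49, 8.88, 7.94, 8.08 and 8.74 in BDL livers at day 1, against 10.02, 11.23 and 10.49 in sham livers. At day 3 Ces3b had 9.23, 8.79, 8.41, 8.27 and 8.06 in BDL livers, against 10.74 and 11.51 in sham livers. The BDL livers of both days formed a narrow band well below the sham livers. At day 7 Ces3b had 8.56, 8.24, 8.95, 8.16 and 8.47 in BDL livers, against 10.71, 10.37, 11.04 and 10.62 in sham livers, and at day 21 it had 8.12, 7.30, 8.02, 7.65 and 7.06 in BDL livers. The day 21 livers included the lowest values of the series for this gene. Ces3b had log2 fold changes of -2.15 ± 0.28 (adjusted p = 5.68e-06) at day 1, -2.57 ± 0.33 (adjusted p = 5.15e-06) at day 3, -2.21 ± 0.26 (adjusted p = 5.44e-07) at day 7 and -3.06 ± 0.26 (adjusted p = 1.32e-09) at day 21, the last 8.32-fold lower. None of the alternative settings or single arrays left out ended a call of Ces3b.

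Ces2 esterases cleave esters with a large alcohol group. Ces2a fell from day 3 on. At day 1 Ces2a had 10.85, 10.88, 10.02, 10.52 and 10.58 in BDL livers, against 10.11, 10.75 and 10.18 in sham livers, and the groups overlapped. At day 3 Ces2a had 9.87, 9.71, 8.63, 8.36 and 8.36 in BDL livers, against 10.59 and 10.64 in sham livers. At day 7 Ces2a had 9.74, 10.06, 9.92, 9.53 and 9.93 in BDL livers, against 10.70, 10.77, 10.59 and 10.84 in sham livers, and at day 21 it had 10.07, 9.53, 9.62, 9.63 and 9.82 in BDL livers. From day 3 on no BDL value reached a sham value. Ces2a had log2 fold changes of 0.23 ± 0.26 (adjusted p = 0.643) at day 1, -1.63 ± 0.30 (adjusted p = 0.000567) at day 3, -0.89 ± 0.24 (adjusted p = 0.00859) at day 7 and -0.99 ± 0.24 (adjusted p = 0.00251) at day 21. The Ces2a call of day 3 was lost with only the arrays of both groups fitted (-1.63, adjusted p = 0.0529). Ces2e, Ces2g and the pseudogene Ces2d-ps passed the threshold at none of these times, with values between -0.56 and 0.32. With all 9 sham arrays as the control, Ces2e was called lower at days 1 and 3, with -0.66 (adjusted p = 0.00407) and -0.60 (adjusted p = 0.0083), and higher at day 7, with 0.52 (adjusted p = 0.0191). It was also lower at day 3 with the sham arrays of days 3 and 7 joined, at -0.72 (adjusted p = 0.00336), and at day 21 without sham day 7 replicate 1, at -0.61 (adjusted p = 0.0183). Ces4a fell with -0.84 ± 0.16 (adjusted p = 0.000378) at day 7 and -0.76 ± 0.16 (adjusted p = 0.000755) at day 21. Its day 7 means, 5.01 ± 0.16 in BDL and 5.85 ± 0.36 in sham livers, lay close to the filter level. So did its BDL mean of 5.09 ± 0.23 at day 21, where 2 of 5 BDL arrays were above that level. The groups of that comparison overlapped, with a highest BDL value of 5.48 and a lowest sham day 7 value of 5.41. At day 3 Ces4a passed with all 9 sham arrays as the control (-0.51, adjusted p = 0.00421) or with the sham arrays of days 3 and 7 joined (-0.51, adjusted p = 0.0112).

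**Figure D3:**
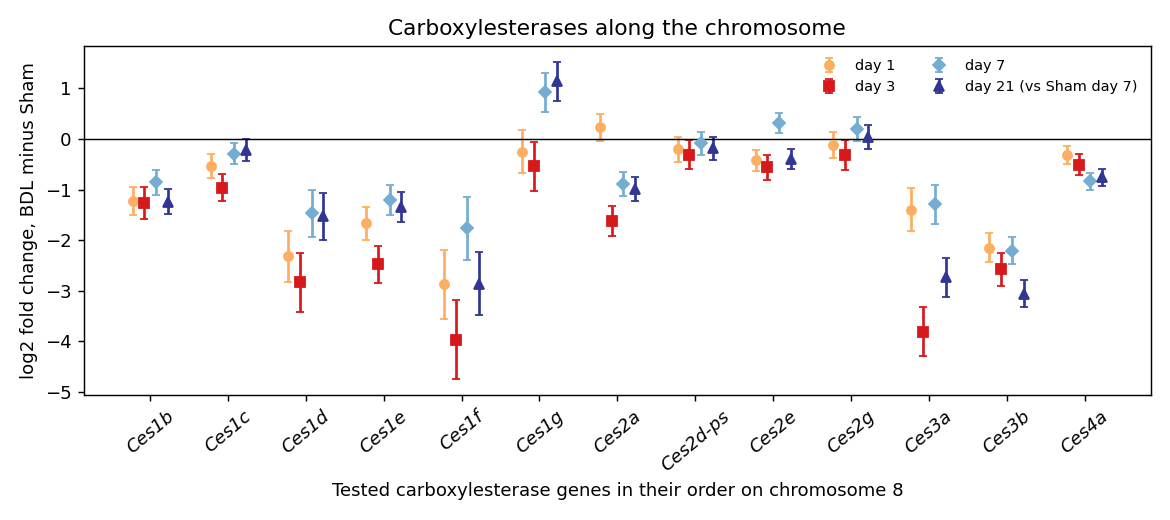
log2 fold change (BDL minus Sham, with SE bars) of the 13 tested carboxylesterases in their order on chromosome 8, with 1 symbol per time. Ces1f lies at -2.86 and its neighbour Ces1g at 1.14 on day 21, and Ces2d-ps, Ces2e and Ces2g stay between -0.56 and 0.32.

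Among the glucuronosyltransferases well above the filter level, Ugt2b1 and Ugt3a1 had the deepest falls. Ugt2b enzymes conjugate steroids, bile acids and drugs. Ugt2b1 had 9.95, 9.83, 8.69, 9.48 and 10.54 in BDL livers at day 1, against 11.45, 11.89 and 10.83 in sham livers. At day 3 Ugt2b1 had 9.90, 10.25, 8.18, 8.12 and 7.62 in BDL livers, against 12.10 and 12.25 in sham livers. Replicates 3, 4 and 5 of BDL day 3 were the lowest, as for Ces1f, Ces1d and Ces3a. At day 7 Ugt2b1 had 11.36, 10.86, 10.97, 11.08 and 10.82 in BDL livers, against 11.58, 12.26, 12.26 and 12.57 in sham livers, and at day 21 it had 9.84, 9.38, 9.64, 10.29 and 9.80 in BDL livers. No BDL liver overlapped its sham group, although 1 sham liver of day 7 came within a short distance of the highest BDL liver. Ugt2b1 had log2 fold changes of -1.69 ± 0.42 (adjusted p = 0.00728) at day 1, -3.37 ± 0.49 (adjusted p = 2.9e-05) at day 3, -1.15 ± 0.39 (adjusted p = 0.0363) at day 7 and -2.38 ± 0.39 (adjusted p = 3.12e-05) at day 21, or 3.23-, 10.3-, 2.22- and 5.2-fold lower. The Ugt2b1 call of day 1 was lost without the 4 arrays of low spread (-1.90, adjusted p = 0.111). The Ugt2b1 call of day 7 was lost with a trended, robust fit (-1.15, adjusted p = 0.0546) or without any 1 of the BDL day 7 arrays numbered 2, 3, 4 and 5 and the Sham day 7 arrays numbered 2, 3 and 4 (-1.17 to -1.02, adjusted p = 0.0548 to 0.112).

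Ugt3a1 belongs to a branch whose human members use sugars other than glucuronic acid. It had 7.09, 6.52, 6.49, 6.10 and 7.33 in BDL livers at day 1, against 9.01, 9.05 and 8.63 in sham livers. At day 3 Ugt3a1 had 6.88, 7.38, 6.64, 6.83 and 6.74 in BDL livers, against 8.88 and 9.15 in sham livers. Both days showed a clear gap between the groups. At day 7 Ugt3a1 had 8.04, 7.68, 7.84, 8.05 and 7.47 in BDL livers, against 8.38, 8.92, 9.17 and 9.31 in sham livers, and at day 21 it had 7.44, 7.16, 7.69, 8.31 and 7.20 in BDL livers. The gap was narrower at these times and the groups still did not overlap. Ugt3a1 had log2 fold changes of -2.19 ± 0.25 (adjusted p = 7.77e-07) at day 1, -2.12 ± 0.29 (adjusted p = 1.33e-05) at day 3, -1.13 ± 0.23 (adjusted p = 0.000686) at day 7 and -1.38 ± 0.23 (adjusted p = 4.26e-05) at day 21. Its neighbour Ugt3a2 fell with -0.61 ± 0.21 (adjusted p = 0.0494) at day 1 and -0.83 ± 0.24 (adjusted p = 0.022) at day 3, and had -0.52 and -0.51 at days 7 and 21. The Ugt3a2 call of day 1 was lost with no filter (-0.61, adjusted p = 0.0691), with only the arrays of both groups fitted (-0.61, adjusted p = 0.299) or without any 1 of the BDL day 1 arrays numbered 2, 3 and 4 and Sham day 1 array 2 (-0.60 to -0.32, adjusted p = 0.07 to 0.313). That of day 3 was lost without Sham day 3 replicate 1 (-0.73, adjusted p = 0.195) or without Sham day 3 replicate 2 (-0.93, adjusted p = 0.0897). Ugt3a2 passed at day 7 with a filter level of 6, after cyclic loess scaling, with only the arrays of both groups fitted, with all 9 sham arrays as the control, with the sham arrays of days 3 and 7 joined or without Sham day 7 replicate 1 (-0.67 to -0.47, adjusted p = 0.0058 to 0.0482). Ugt3a2 passed at day 21 with a filter level of 6, after cyclic loess scaling, with a trended, robust fit, with only the arrays of both groups fitted, with all 9 sham arrays as the control, with the sham arrays of days 3 and 7 joined or without Sham day 7 replicate 1 (-0.65 to -0.45, adjusted p = 0.00558 to 0.049).

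Ugt2a3 and Ugt2b5 lie in the same cluster as Ugt2b1. Ugt2a3, whose human counterpart conjugates bile acids, had means of 8.52 ± 0.51 in BDL and 9.71 ± 0.51 in sham livers at day 1, 9.57 ± 0.37 and 10.42 ± 0.23 at day 3, 9.59 ± 0.11 and 10.26 ± 0.17 at day 7, and 9.58 ± 0.28 in BDL livers at day 21. It fell at all 4 times, with -1.19 ± 0.23 (adjusted p = 0.000842), -0.85 ± 0.27 (adjusted p = 0.0384), -0.66 ± 0.21 (adjusted p = 0.0277) and -0.67 ± 0.21 (adjusted p = 0.0208). The day 3 call was lost with no filter (-0.85, adjusted p = 0.0511), with only the arrays of both groups fitted (-0.85, adjusted p = 0.0642) or without any 1 of the BDL day 3 arrays numbered 3, 4 and 5 and the Sham day 3 arrays numbered 1 and 2 (-1.02 to -0.69, adjusted p = 0.0545 to 0.303). The day 7 call was lost without any 1 of the BDL day 7 arrays numbered 2 and 5 and the Sham day 7 arrays numbered 3 and 4 (-0.65 to -0.59, adjusted p = 0.0559 to 0.0879). The day 21 call was lost without BDL day 21 replicate 2 (-0.60, adjusted p = 0.0555) or without Sham day 7 replicate 3 (-0.60, adjusted p = 0.0693). Ugt2b5 had means of 10.00 ± 0.53 in BDL and 10.49 ± 0.48 in sham livers at day 1, 9.78 ± 0.26 and 10.67 ± 0.05 at day 3, 10.27 ± 0.24 and 10.81 ± 0.13 at day 7, and 9.81 ± 0.18 in BDL livers at day 21. It fell with -0.89 ± 0.25 (adjusted p = 0.0199) at day 3 and fell at day 21 as well (adjusted p = 0.000379), and had -0.49 and -0.54 at days 1 and 7. The day 3 call of Ugt2b5 was lost without Sham day 3 replicate 1 (-0.93, adjusted p = 0.103) or without Sham day 3 replicate 2 (-0.85, adjusted p = 0.152). Ugt2b5 was called lower at day 1 after cyclic loess scaling, with all 9 sham arrays as the control, with the array set as a term or without BDL day 1 replicate 5 (-0.67 to -0.55, adjusted p = 0.00363 to 0.0434). Ugt2b5 was called lower at day 7 after cyclic loess scaling, with only the arrays of both groups fitted, with the sham arrays of days 3 and 7 joined or without BDL day 7 replicate 2 (-0.64 to -0.49, adjusted p = 0.00923 to 0.0435).

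Ugt2b38, a close copy of Ugt2b5 in the sequences above, gave weak signals. It had 3.14, 3.02, 3.30, 2.31 and 3.47 in BDL livers at day 1, against 3.10, 5.41 and 2.54 in sham livers. At day 3 Ugt2b38 had 2.53, 2.79, 2.41, 3.21 and 2.51 in BDL livers, against 4.28 and 5.65 in sham livers. At day 7 Ugt2b38 had 2.87, 2.77, 3.16, 2.41 and 2.90 in BDL livers, against 3.89, 4.35, 4.31 and 5.69 in sham livers. Every BDL value, and all sham values but 1 at each day, lay under the filter level. The day 21 livers had 2.35, 2.48, 2.20, 2.58 and 2.51, also below all day 7 sham values. At day 1 the groups overlapped. Its calls at days 3, 7 and 21 rest on values near or under the filter level. It was tested through sham arrays alone, and nothing is read from these calls. Ugt2b34, Ugt2b35 and Ugt2b36 passed at none of the 4 comparisons, with values from -0.98 to 0.06. With all 9 sham arrays as the control, Ugt2b34 and Ugt2b36 passed at days 1 and 3 and Ugt2b35 at day 3, all lower after BDL, and all 3 passed at day 3 with the sham arrays of days 3 and 7 joined. At day 7 Ugt2b36 passed with only the arrays of both groups fitted (-0.39, adjusted p = 0.0248). At day 21 Ugt2b36 passed with only the arrays of both groups fitted (-0.55, adjusted p = 0.00361). Ugt2b34 passed at day 1 with the array set as a term, at -0.64 (adjusted p = 0.0182). At day 3 Ugt2b36 passed after cyclic loess scaling, at -1.01 (adjusted p = 0.0423), and without BDL day 3 replicate 2, at -1.19 (adjusted p = 0.0237). Ugt8a, which makes the galactolipids of myelin, stayed near the filter level, with means of 5.09 ± 0.32 in BDL and 5.51 ± 0.07 in sham livers at day 1, 5.08 ± 0.22 and 5.01 ± 0.04 at day 3, 4.89 ± 0.20 and 4.64 ± 0.22 at day 7, and 4.83 ± 0.23 in BDL livers at day 21. None of these differences passed the threshold. That of day 1 passed without BDL day 1 replicate 2 (-0.56, adjusted p = 0.0098).

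**Figure D4:**
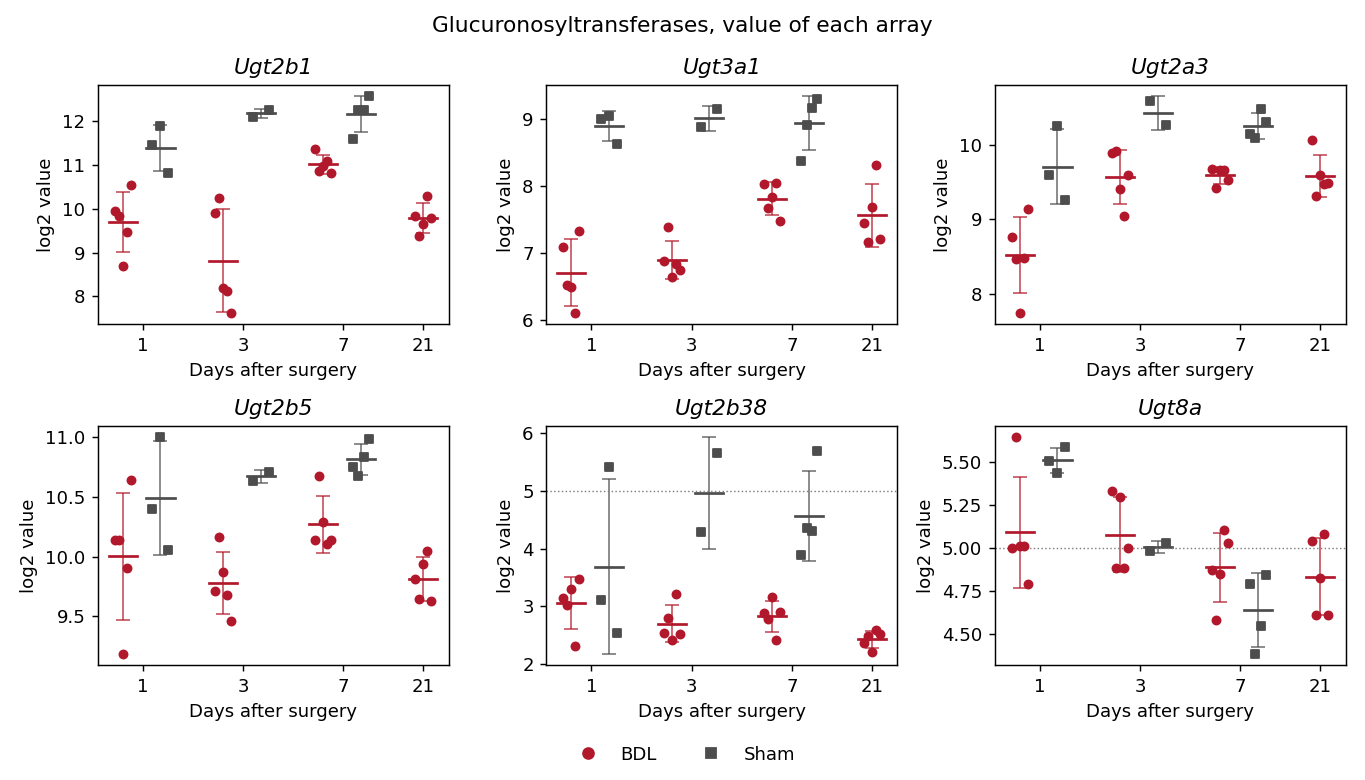
log2 value of each array for 6 glucuronosyltransferases by day after surgery, with BDL (red circles) left of Sham (grey squares). Horizontal bars are group means, whiskers are SD, and the dotted line, in panels that reach down to it, marks the filter level of 5. All BDL points of Ugt2b1 and Ugt3a1 lie below the Sham points of their comparison, and only 3 Sham points of Ugt2b38 lie above the dotted line.

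The flavin monooxygenases that changed were higher after BDL. Fmo5, which inserts oxygen next to carbonyl groups and whose loss keeps ageing mice lean, was higher after BDL at all 4 times. It had 12.42, 12.55, 12.36, 12.36 and 12.28 in BDL livers at day 1, against 11.74, 11.53 and 10.98 in sham livers. At day 3 Fmo5 had 12.43, 12.51, 12.38, 12.24 and 11.84 in BDL livers, against 11.69 and 10.74 in sham livers. The lowest BDL liver of each day was above the highest sham liver, and the sham livers of day 3 were far apart. At day 7 Fmo5 had 12.10, 11.77, 11.83, 12.05 and 11.99 in BDL livers, against 11.23, 11.27, 11.16 and 11.40 in sham livers, and at day 21 it had 11.91, 11.87, 11.76, 11.71 and 11.78 in BDL livers. These groups did not overlap either. Fmo5 had log2 fold changes of 0.98 ± 0.17 (adjusted p = 0.000183) at day 1, 1.07 ± 0.19 (adjusted p = 0.000427) at day 3, 0.68 ± 0.15 (adjusted p = 0.00169) at day 7 and 0.54 ± 0.15 (adjusted p = 0.00947) at day 21, or 1.97-, 2.09-, 1.61- and 1.45-fold. The Fmo5 call of day 1 was lost without the 4 arrays of low spread (0.82, adjusted p = 0.0592). The Fmo5 call of day 3 was lost without Sham day 3 replicate 2 (0.59, adjusted p = 0.114).

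Fmo2, known mainly as the flavin monooxygenase of the lung, had 7.27, 8.02, 7.31, 7.24 and 7.63 in BDL livers at day 1, against 6.72, 6.96 and 5.88 in sham livers. At day 3 Fmo2 had 9.52, 8.00, 9.29, 9.07 and 9.58 in BDL livers, against 8.37 and 6.33 in sham livers. Here 1 sham liver lay within the BDL range and the other far below it. At day 7 Fmo2 had 7.02, 7.31, 7.42, 7.44 and 7.05 in BDL livers, against 7.27, 6.17, 7.30 and 6.29 in sham livers, and at day 21 it had 9.53, 7.99, 8.13, 7.93 and 7.91 in BDL livers. The groups overlapped at day 7, and at day 21 all BDL livers were above the day 7 sham livers, replicate 1 by the widest margin. Fmo2 had log2 fold changes of 1.74 ± 0.46 (adjusted p = 0.0122) at day 3 and 1.54 ± 0.36 (adjusted p = 0.00204) at day 21, and the values of 0.98 ± 0.40 (adjusted p = 0.108) at day 1 and 0.49 ± 0.36 (adjusted p = 0.396) at day 7 missed the threshold. The Fmo2 call of day 3 was lost with only the arrays of both groups fitted (1.74, adjusted p = 0.0917) or without Sham day 3 replicate 2 (0.73, adjusted p = 0.52). Without sham day 3 replicate 1 the day 3 value was 2.76 (adjusted p = 0.00136). Without BDL day 21 replicate 1 the day 21 value was 1.23 (adjusted p = 0.00856).

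Fmo4 rose at day 7, by 0.61 ± 0.21 (adjusted p = 0.0408), with 7.13, 6.61, 7.16, 6.58 and 7.07 in BDL livers, against 6.18, 6.09, 6.56 and 6.35 in sham livers, and these groups did not overlap. The call was lost with no filter (0.61, adjusted p = 0.0548), after cyclic loess scaling (0.54, adjusted p = 0.0667) or without any 1 of the BDL day 7 arrays numbered 1, 3 and 5 and the Sham day 7 arrays numbered 1, 2 and 4 (0.55 to 0.63, adjusted p = 0.0691 to 0.119). Its means at the other times were 6.67 ± 0.25 in BDL and 6.12 ± 0.04 in sham livers at day 1, 6.89 ± 0.25 and 6.15 ± 1.18 at day 3, and 6.78 ± 0.23 in BDL livers at day 21. The differences of 0.55, 0.74 and 0.48 did not pass. The day 3 difference of Fmo4 passed with all 9 sham arrays as the control (0.69, adjusted p = 0.00373), with the sham arrays of days 3 and 7 joined (0.64, adjusted p = 0.0146) or without Sham day 3 replicate 1 (1.58, adjusted p = 0.000184). Its day 21 difference passed with only the arrays of both groups fitted (0.48, adjusted p = 0.0184), with all 9 sham arrays as the control (0.57, adjusted p = 0.0104) or with the sham arrays of days 3 and 7 joined (0.53, adjusted p = 0.0338). Fmo1, a form found in the liver of male mice, passed in none of the 4 comparisons, with -0.17, 0.46, 0.31 and 0.43. Its means were 9.61 ± 0.51 in BDL and 9.78 ± 0.46 in sham livers at day 1, 10.56 ± 0.11 and 10.10 ± 0.38 at day 3, 10.17 ± 0.16 and 9.86 ± 0.14 at day 7, and 10.30 ± 0.09 in BDL livers at day 21. At day 3 Fmo1 was called higher with all 9 sham arrays as the control (0.67, adjusted p = 0.00143) or with the sham arrays of days 3 and 7 joined (0.62, adjusted p = 0.00745). At day 21 Fmo1 was called higher after cyclic loess scaling (0.39, adjusted p = 0.039), with only the arrays of both groups fitted (0.43, adjusted p = 0.00437) or with all 9 sham arrays as the control (0.41, adjusted p = 0.0371).

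**Figure D5:**
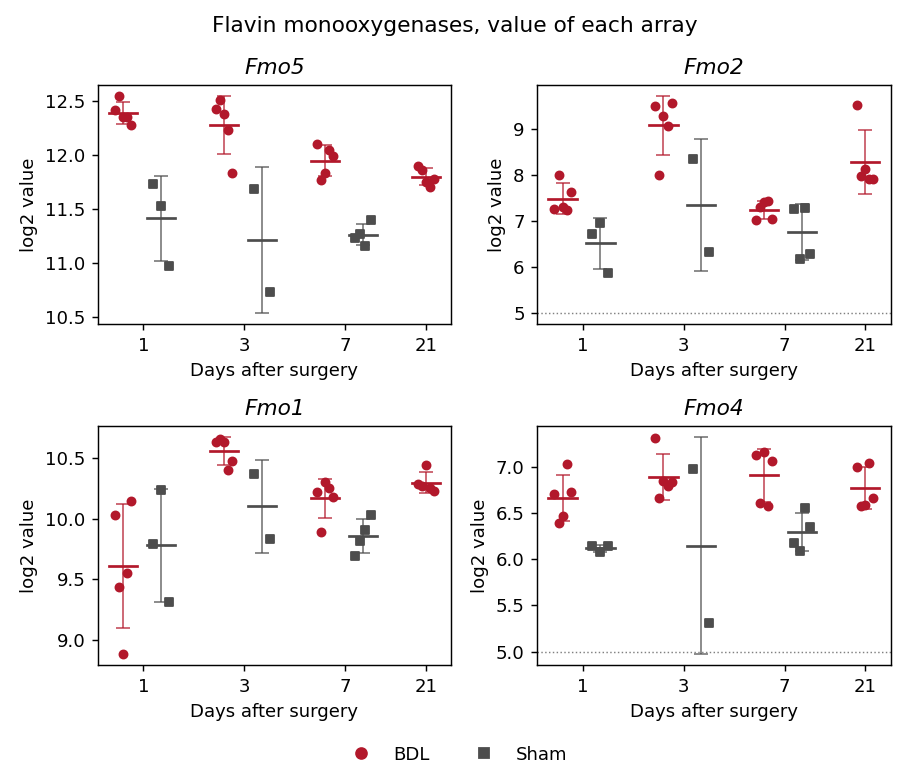
log2 value of each array for the 4 tested flavin monooxygenases by day after surgery, with BDL (red circles) left of Sham (grey squares). Horizontal bars are group means, whiskers are SD, and the dotted line, in panels that reach down to it, marks the filter level of 5. Every BDL point of Fmo5 lies above the Sham points of its comparison, and in Fmo2 at day 3 the 2 Sham points, 8.37 and 6.33, are far apart.

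Within the BDL livers, levels were compared between successive times. In BDL day 3 against BDL day 1 livers, Fmo2 rose by 1.60 ± 0.34 (adjusted p = 0.00215), Ugt2a3 by 1.05 ± 0.20 (adjusted p = 0.000806) and Fmo1 by 0.95 ± 0.17 (adjusted p = 0.00046). Ces3a fell by 2.22 ± 0.36 (adjusted p = 0.000155) and Ces2a fell by 1.58 ± 0.23 (adjusted p = 3.5e-05). These were the members called, 3 higher and 2 lower, with 12.0% higher and 6.44% lower over all genes. All 12 markers of sinusoidal endothelium and 9 of 12 of Kupffer cells and macrophages were higher at day 3 than at day 1 as well, and their part in these differences was not tested. Ugt2b1 was called lower after cyclic loess scaling, without BDL day 3 replicate 1, without BDL day 3 replicate 2 or without BDL day 1 replicate 3 (-1.25 to -1.01, adjusted p = 0.0125 to 0.0433). Ces1f was called lower without BDL day 3 replicate 2 (-1.66, adjusted p = 0.0227). Ugt3a2 was called higher without BDL day 1 replicate 5 (0.58, adjusted p = 0.0138). BDL day 7 livers had 10 members above and 1 below BDL day 3 livers, with 4.60% higher and 1.10% lower over all genes. The 10 that rose were Ces1c, Ces1e, Ces1f, Ces1g, Ces2a, Ces2e, Ces3a, Ugt2b1, Ugt2b35 and Ugt3a1. Ces1f was higher at day 7 than at day 3 by 2.49 ± 0.59 (adjusted p = 0.00971), Ces3a by 2.36 ± 0.36 (adjusted p = 0.000292) and Ugt2b1 by 2.21 ± 0.37 (adjusted p = 0.0006). Ces3b, at -0.07, Ces1d, at 1.09 ± 0.44 (adjusted p = 0.148), and Ces1b, at 0.25, did not pass. Ces1d passed without BDL day 3 replicate 2 (1.60, adjusted p = 0.00719). Ugt2b34 passed without BDL day 3 replicate 2 (0.73, adjusted p = 0.0207). Fmo1 was called lower after cyclic loess scaling (-0.43, adjusted p = 0.0496) or with only the arrays of both groups fitted (-0.39, adjusted p = 0.0291). Fmo2 was the member that fell, by 1.84 ± 0.34 (adjusted p = 0.00152). The Ces1c call was lost with no filter (0.68, adjusted p = 0.0608), with only the arrays of both groups fitted (0.68, adjusted p = 0.116) or without any 1 of the BDL day 3 arrays numbered 3, 4 and 5 and the BDL day 7 arrays numbered 1, 2, 3, 4 and 5 (0.41 to 0.70, adjusted p = 0.0642 to 0.161). The Ces1g call was lost with no filter (1.24, adjusted p = 0.0547), with a trended, robust fit (1.24, adjusted p = 0.0606), with only the arrays of both groups fitted (1.24, adjusted p = 0.079) or without any 1 of the BDL day 3 arrays numbered 1, 3 and 5 and the BDL day 7 arrays numbered 1, 2, 3, 4 and 5 (0.81 to 1.29, adjusted p = 0.0559 to 0.158). The Ces2a call was lost with only the arrays of both groups fitted (0.85, adjusted p = 0.0844) or without any 1 of the BDL day 3 arrays numbered 3, 4 and 5 and the BDL day 7 arrays numbered 2, 3 and 5 (0.69 to 0.83, adjusted p = 0.0539 to 0.0933). The Ugt2b35 call was lost without any 1 of the BDL day 3 arrays numbered 3 and 5 and the BDL day 7 arrays numbered 1 and 3 (0.66 to 0.80, adjusted p = 0.0518 to 0.0928).

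Between BDL day 21 and BDL day 7 livers no member was called in limma, with 0.401% higher and 0.463% lower over all genes, and 6 members had an unadjusted p under 0.05. Of these, Ces3a had -1.44 ± 0.36 (adjusted p = 0.053), Ugt2b1 -1.23 ± 0.37 (adjusted p = 0.147), Ces3b -0.85 ± 0.25 (adjusted p = 0.126), Ces2e -0.71 ± 0.18 (adjusted p = 0.0606) and Ugt2b5 -0.46 ± 0.19 (adjusted p = 0.475). Fmo2, with 1.05 ± 0.34 (adjusted p = 0.234), was the one that was higher at day 21. Ces1f had -1.09 ± 0.59 (adjusted p = 0.689). With only the arrays of both groups fitted, Ces3a, Ces2e and Ugt2b1 passed, at -1.44 (adjusted p = 0.00997), -0.71 (adjusted p = 0.0453) and -1.23 (adjusted p = 0.00336). After cyclic loess scaling Ces3a and Ces2e passed, at -1.44 (adjusted p = 0.0423) and -0.69 (adjusted p = 0.0417), and without BDL day 21 replicate 4 Ces3a passed, at -1.63 (adjusted p = 0.0371).

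Whether the effect of BDL itself differed between days was tested as the difference of the same-day contrasts. The BDL effect at day 3 minus that at day 1 was called for no member, with 0.0272% higher and 0.0476% lower over all genes, and 5 members had an unadjusted p under 0.05. Ces2a had -1.85 ± 0.40 (adjusted p = 0.0654) and Ces3a -2.41 ± 0.64 (adjusted p = 0.108). With the array set as a term Ces2a passed, at -1.76 (adjusted p = 0.042), and after cyclic loess scaling, at -1.81 (adjusted p = 0.0434). Ces3a passed without BDL day 3 replicate 2 (-2.82, adjusted p = 0.0149). Leaving out 1 array moved Ces2a past the threshold without BDL day 3 replicate 1 (-2.07, adjusted p = 0.00731), replicate 2 (-2.03, adjusted p = 0.0117), BDL day 1 replicate 3 (-1.99, adjusted p = 0.0294) or sham day 1 replicate 2 (-2.05, adjusted p = 0.0207). The effect at day 7 minus that at day 3 was likewise called for no member, with 0.0408% and 0.0136% over all genes and 8 members at an unadjusted p under 0.05. Ces3a had 2.52 ± 0.62 (adjusted p = 0.146) and Ugt2b1 2.22 ± 0.62 (adjusted p = 0.211), and both passed without BDL day 3 replicate 2, at 2.92 (adjusted p = 0.00868) and 2.58 (adjusted p = 0.0383). The effect at day 7 minus that at day 1 was called for no member, with 3.48% and 0.857% over all genes and 6 members at an unadjusted p under 0.05, of which Ces2a had -1.11 ± 0.35 (adjusted p = 0.0734) and Ugt3a1 1.06 ± 0.34 (adjusted p = 0.0774). Ces2a passed with only the arrays of the 4 groups fitted (-1.11, adjusted p = 0.0171), without BDL day 1 replicate 3 (-1.25, adjusted p = 0.0441) or without Sham day 1 replicate 2 (-1.31, adjusted p = 0.0404). Ugt3a1 passed with the array set as a term (1.14, adjusted p = 0.0429) or without BDL day 1 replicate 5 (1.22, adjusted p = 0.0303). Fmo1 passed with the array set as a term (0.67, adjusted p = 0.04). The deeper means of several members at day 3 than at days 1 and 7 did not pass these tests as fitted over all arrays.

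Between sham groups few differences of these genes passed the threshold. In sham day 1 against sham day 7 livers 1 member was higher, with 1.15% higher and 2.96% lower over all genes. It was Ugt8a, at 0.87 ± 0.17 (adjusted p = 0.0132), whose values lie near the filter level. That call was lost with only the arrays of both groups fitted (0.87, adjusted p = 0.238), with the array set as a term (0.68, adjusted p = 0.246), without the 4 arrays of low spread (0.80, adjusted p = 0.404), without Sham day 1 replicate 1 (0.87, adjusted p = 0.066) or without Sham day 1 replicate 3 (0.83, adjusted p = 0.131). Without sham day 1 replicate 2 the count went to 5, as Ugt2a3, at -0.83 (adjusted p = 0.0246), Ugt2b35, at -0.89 (adjusted p = 0.0183), Ugt3a2, at -0.63 (adjusted p = 0.041), and the weak row of Ugt2b38 were then called lower. In sham day 3 against sham day 7 livers no member was called and none had an unadjusted p under 0.05 in limma, with 0.00% higher and 0.00% lower over all genes.

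Genes that supply, undo or accompany these reactions were described from 6 lists. Of 8 genes tested from a list on UDP-glucuronate supply and transport, 3, 1, 2 and 2 were higher at days 1, 3, 7 and 21. None was lower, and the list medians were 0.15, 0.14, 0.23 and 0.08. The list also holds genes that are not specific to UDP-glucuronate, Slc35b1 among them, so its counts do not measure that supply. Pgm2, a phosphoglucomutase, rose at all 4 times, by 0.92, 1.10, 1.27 and 1.24. Ugdh, which makes UDP-glucuronate, rose at day 7, by 0.75 (adjusted p = 0.00562), and at day 21, by 0.53 (adjusted p = 0.0437), and Slc35b1 rose at day 1, by 0.86 (adjusted p = 0.000925). Of 6 genes that cleave glucuronides or take part in the breakdown of related sugar chains, 1, 0, 2 and 3 were higher and none was lower. Gusb, the beta-glucuronidase, rose at days 1, 7 and 21, by 0.52, 0.88 and 0.78. Hpse and Idua were also higher at day 21, by 0.79 and 0.65.

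Other ester and lipid hydrolases went both ways, with 1, 1, 4 and 3 of 24 higher and 5, 7, 4 and 5 lower at days 1, 3, 7 and 21. Their medians were -0.23, -0.29, -0.07 and -0.08. Afmid, the kynurenine formamidase, fell at day 1, with -1.81 (adjusted p = 0.000286). Mgll, the monoacylglycerol lipase, was -1.61 (adjusted p = 0.000346) at day 3, -1.15 at day 7 and -1.70 at day 21, all called lower. Abhd2, a serine hydrolase, rose by 0.84, 1.41 and 1.73 at days 3, 7 and 21. A list of other flavin and molybdenum oxidoreductases and partner proteins had 15 genes tested. Of these, 3, 4, 4 and 5 were higher and 3, 0, 0 and 1 lower. Nqo1, a quinone reductase, rose at all 4 times, by 0.72, 0.84, 1.20 and 1.47. Nqo2 fell at day 1, with -1.44 (adjusted p = 0.00078), and Aox3, an aldehyde oxidase, fell at days 1 and 21, with -0.78 and -0.83.

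Nuclear receptors and hepatocyte transcription factors were also mixed, with 1, 2, 4 and 4 of 21 higher and 4, 3, 4 and 6 lower. Ppara, the fatty acid receptor, fell at all 4 times, with -1.06, -0.94, -0.99 and -1.38. Onecut1, a hepatocyte and bile duct factor, was lower at day 21, with -1.55 (adjusted p = 0.0425), and Bcl6, a repressor, likewise, with -1.28 (adjusted p = 0.0241). Of 10 genes for the transport of glucuronides and the breakdown of heme, 2, 1, 3 and 4 were higher and 3, 2, 2 and 3 lower. The uptake carrier Slco1a1 fell at all 4 times, with -2.14, -5.84, -5.31 and -6.93, and Slco1b2, another uptake carrier, did so with -0.81, -1.08, -0.60 and -1.02. Hmox1, which opens the heme ring on the way to bilirubin, rose by 1.77, 1.28, 1.59 and 1.41. These counts stand beside the shares over all genes given above, and nothing particular to a list was tested.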

How the data were processed

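Liver RNA was measured on 29 Affymetrix arrays in 7 groups, set by the treatment and time labels. Per the submitters' processing notes, the authors made the deposited log2 values with RMA in oligo 1.52.0. This removes background, equalises the distributions of the arrays and joins the probes of each row, and it may compress differences between very bright signals. Labelling used oligo dT primers, per the labels' protocols. The array they name is Mouse Genome 430 2.0, but the row identifiers are those of Mouse Gene 2.0 ST, whose annotation gave the names. The sources used here do not give the genome build.

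The 41345 rows include 23521 with 1 symbol, 1814 with several symbols and 16010 that are unnamed here. A RefSeq table of GRCm38.p6 was used to update symbols by gene ID and listed 23328 of those with 1 symbol. The row of highest mean was kept for each of 22180 genes, and each member had a single row. Genes with 3 or more arrays above a log2 value of 5, 14699 in all, were tested with limma 3.58.1 under R 4.3.3 (lmFit, eBayes), with 1 mean per group over all arrays. Adjusted p-values are two-sided Benjamini-Hochberg values over those genes, with a threshold of 0.05, for 12 comparisons. Fold changes are first-named group minus second. Of the 12 comparisons, 2, the BDL effect at day 3 against day 1 and at day 7 against day 3, were added later. Precision is limited by the number of arrays: log2 fold changes of all genes had median SEs of 0.151, 0.173 and 0.138 at days 1, 3 and 7.

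Values in every group are given for up to 5 members with the largest rise and 5 with the largest fall in each BDL against sham comparison, up to 3 each way in the others, and Ugt2b1, Ugt2b5, Ugt8a, Ces1d, Ces1g, Ces2a, Ces3a, Fmo1, Fmo2 and Fmo5 always. Values per array are given for those named in at least 2 of the BDL against sham comparisons, and Ces1g, Ces2a and Ugt3a1 were added to them. From each list of related genes, up to 3 with the largest called change are named, and a gene of another list may be named besides. Members, lists and rules were chosen with earlier results of these data known. The procedure was tested on simulated data. Promoter sequences are from RefSeq, aligned globally in pairs. Alternatives were other filters, the mean of a gene's rows, cyclic loess scaling, a trended and robust fit, fewer or more arrays in the fit, the day 1 array set as a term, and each array left out in turn.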

Additional observations from a re-analysis of the deposited data

Results flagged for a closer look

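In 7 of 135 groups of members and arrays, 1 array lay far from the others of its group by Dixon's criterion, which chance alone gives in about 1 of 20 groups. At day 21 the BDL arrays concerned were replicate 1 for Ces1b, at 7.54 with the nearest array at 7.10, replicate 3 for Ces1d, at 7.29 with the nearest at 7.61, replicate 3 for Fmo1, at 10.44 with the nearest at 10.29, and replicate 1 for Fmo2, at 9.53 with the nearest at 8.13. At day 1 they were BDL replicate 3 for Ces2g, at 6.75 with the nearest at 7.67, and BDL replicate 2 for Ugt8a, at 5.65 with the nearest at 5.01. At day 3 it was BDL replicate 1 for Fmo4, at 7.32 with the nearest at 6.85.

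Ces2e was flagged because every BDL array lay below the sham mean in some comparisons and above it in another. On days 1, 3 and 7 its log2 fold changes were -0.43, -0.56 and 0.32, and day 21 against sham day 7 gave -0.39. The difference between the BDL effects at days 7 and 3 was 0.88 ± 0.31 (adjusted p = 0.395) and that between days 7 and 1 was 0.75 ± 0.29 (adjusted p = 0.151) in limma, and neither passed the threshold. With all 9 sham arrays as the control Ces2e was called lower at day 1, with -0.66 (adjusted p = 0.00407), and at day 3, with -0.60 (adjusted p = 0.0083), and higher at day 7, with 0.52 (adjusted p = 0.0191). Within the BDL livers, Ces2e was higher at day 7 than at day 3 by 1.12 ± 0.18 (adjusted p = 0.000574).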

How the results depend on the processing

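No member changed sign under any alternative in which it had been called. With only the arrays of the groups compared fitted, day 1 gave 704 called genes against 1958, day 3 gave 921 against 1493 with 1 member higher and 9 lower, day 21 gave 5 members higher, BDL day 21 against day 7 gave 3 members, sham day 1 against day 7 gave 0, and the BDL effect at day 7 minus day 1 gave 1. With all 9 sham arrays as control, called genes were 3198 at day 1, 3481 at day 3 and 4375 at day 7 (2819 in the design used), with 16 members lower at day 1, 4 higher at day 3 and 5 higher at day 21. With the sham arrays of days 3 and 7 joined, an alternative added after seeing the data, day 3 gave 2882 genes and 4 members higher. Without the 4 day 1 arrays of low spread, day 1 gave 597 genes, 0 members higher and 5 lower, Ugt2b38 among them, and sham day 1 against day 7 gave 0 members. This leaves 1 sham array, whose spread is taken to be that of the other groups. Within those 4 arrays, also added after seeing the data, day 1 gave 1364 genes with 1 member higher and 8 lower. A term for the array set gave 0 members in sham day 1 against day 7, and with it the BDL effects at day 3 minus day 1 and day 7 minus day 1 gave 1 and 2. Cyclic loess scaling gave 1 member higher at day 7, 2 members in BDL day 21 against day 7 and 1 for the BDL effect at day 3 minus day 1. It turned the split of all called genes at day 1 to 1109 higher and 1011 lower, from 1252 and 706, and at day 7 to 1907 and 1152, from 2088 and 731. With no filter, day 7 gave 1 member higher and the BDL effect at day 7 minus day 3 gave 1. The latter was none of the tested members but a row below the filter level, not told apart from background. A filter level of 6, which left out Ugt2b38 and Ugt8a, gave 0 in sham day 1 against day 7.

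Leaving out 1 array at a time gave 1268 to 2750 called genes and 8 to 11 members lower at day 1, 668 to 1692 genes with 0 to 3 members higher and 9 to 15 lower at day 3, and 2267 to 2822 genes with 1 to 2 members higher and 6 to 12 lower at day 7. At day 21 it gave 2 to 3 members higher and 12 to 15 lower. It gave 5 to 7 members for BDL day 3 against day 1, 7 to 13 for day 7 against day 3 and 0 to 1 for day 21 against day 7, 0 to 5 for sham day 1 against day 7, and 0 to 2 for each difference of BDL effects. Of 637 such fits of called member values, 87 lost the call and none changed sign. No paired analysis was possible because the labels' animal numbers differ between groups and pair no samples.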
